A study of Mus musculus with 8 samples.

Results

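The cyclin and cyclin-dependent kinase (Cdk) genes were examined for the histone variant H3.3 in mouse embryonic stem cells (mESCs) and in their differentiated progeny, with and without the histone chaperone HIRA. Members were the protein-coding genes of GENCODE M1 whose names are Ccn, a letter and a digit, or that start with Cdk and a digit, without the Cdk5r genes. This gave 37 of 22367 genes, of which 16 were cyclin genes and 21 were Cdk genes. Cdk2ap1 and Cdk2ap2 met the rule by name, although they encode proteins that bind CDK2 and are not kinases. The rule used gene names and no peak values.

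H3.3 carrying an HA tag was pulled down with its DNA from chromatin cut by MNase and not crosslinked, and the DNA was sequenced (H3.3-HA ChIP-seq). There were 4 conditions with 1 ChIP library and 1 input library each. The WT cells were W9.5 mESCs and the Hira-null cells were the line Clone104, and both carried the HA tag on H3.3. Each line was sampled undifferentiated at day 0, and at day 15 after embryoid bodies had been formed in hanging drops and plated for cardiomyocyte differentiation. The Hira-null genotype was thus represented by 1 clone, so an effect of the clone cannot be told apart from an effect of losing HIRA. A day 15 culture also held cells other than cardiomyocytes, and a peak list does not say which cells carried the mark.

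Many cyclins are regulatory subunits that activate a catalytic partner of the CDK family, and some of them rise and fall through the cell cycle. D and E cyclins drive cells through G1, and A and B cyclins act in S phase, G2 and mitosis. A second branch of the family does not time division and instead acts on RNA polymerase II and RNA processing, such as cyclin T with CDK9, cyclin L with CDK11, and CDK12 and CDK13. H3.3 enters chromatin independently of DNA replication, and HIRA delivers it to many active genes. Embryonic stem cells divide fast with a short G1, and cardiomyocytes leave the cell cycle as they mature.

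The deposited lists held 22730 peaks for WT day 0, 17706 for Hira-null day 0, 27272 for WT day 15 and 7332 for Hira-null day 15. Each peak carried a score of the authors' peak caller, which is minus 10 times the log10 of a p-value and grows with read depth. Depth per library is unknown, so counts in different lists were set side by side without a test. The defining markers moved with the labelled days in WT cells. All 5 embryonic stem cell markers (Dppa2, Esrrb, Nanog, Pou5f1 and Zfp42) had a WT peak at day 0 and 1 of 5 had it at day 15, whereas 2 of 5 cardiac markers (Gata4, Myl4, Myl7, Myocd and Tbx20) had a WT peak at day 0 and 5 of 5 at day 15. In Hira-null cells, 3 of 5 stem cell markers had a peak at day 0, and 3 of 5 cardiac markers had one at day 15, when Myl4 and Myl7 had none.

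The sequences that the strongest and most shared member peaks covered are shown first, in mm9 and on the strand of the gene. The widest and highest-scoring member peak lay over the end of Ccng1 in WT day 15, and 300 bases around its midpoint lie at chr11:40560982-40561281. The highest-scoring Hira-null day 15 member peak lay over the end of Ccnl1. Its middle held exons, so the first 300 bases clear of exons towards the far side of the gene end are given, at chr3:65749773-65750072. The highest-scoring Hira-null day 0 member peak lay upstream of Ccne2, with its middle at chr4:11110921-11111220. A stretch past the end of Cdk13 at chr13:17806603-17806902 was covered in all 4 lists, and was chosen after its values were seen.
Ccng1, peak over the gene end: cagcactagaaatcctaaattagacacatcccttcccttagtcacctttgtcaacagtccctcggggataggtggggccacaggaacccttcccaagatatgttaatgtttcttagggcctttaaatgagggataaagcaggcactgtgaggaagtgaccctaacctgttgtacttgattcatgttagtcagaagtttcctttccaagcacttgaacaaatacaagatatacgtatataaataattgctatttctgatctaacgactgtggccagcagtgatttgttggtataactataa
Ccnl1, peak past the gene end: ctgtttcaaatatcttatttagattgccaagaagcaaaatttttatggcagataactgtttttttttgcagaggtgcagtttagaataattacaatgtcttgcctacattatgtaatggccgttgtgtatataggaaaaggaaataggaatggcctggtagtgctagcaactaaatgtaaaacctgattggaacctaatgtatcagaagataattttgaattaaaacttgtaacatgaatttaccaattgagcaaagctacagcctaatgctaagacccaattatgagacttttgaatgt
Ccne2, peak upstream of the gene: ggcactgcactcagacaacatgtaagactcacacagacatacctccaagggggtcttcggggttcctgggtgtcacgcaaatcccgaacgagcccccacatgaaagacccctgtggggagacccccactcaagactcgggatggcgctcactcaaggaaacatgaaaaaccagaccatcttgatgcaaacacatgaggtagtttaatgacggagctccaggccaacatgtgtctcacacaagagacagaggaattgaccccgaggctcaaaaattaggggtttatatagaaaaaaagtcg
Cdk13, peak past the gene end: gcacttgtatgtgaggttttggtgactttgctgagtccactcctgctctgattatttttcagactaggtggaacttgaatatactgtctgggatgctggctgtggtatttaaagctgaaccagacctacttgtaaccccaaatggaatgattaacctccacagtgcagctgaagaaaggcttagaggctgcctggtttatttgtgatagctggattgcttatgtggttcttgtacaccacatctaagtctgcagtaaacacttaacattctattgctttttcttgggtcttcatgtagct

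These stretches differed in base composition. The Ccne2 stretch held 9 CpG sites and was 50.7% G and C, whereas the Ccnl1 stretch held 1 CpG and was 32.7% G and C. The Ccng1 stretch held 3 CpG sites at 41.0%, and the Cdk13 stretch held 0 CpG sites at 42.3%. Over all member peaks, median G and C content was 42.7% in WT day 0, 44.5% in Hira-null day 0, 39.8% in WT day 15 and 43.2% for Hira-null day 15, against 45.0%, 44.7%, 42.6% and 42.1% over the whole lists.

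Each gene had a window that began 10 kb ahead of its transcription start site (TSS) and ended 3 kb past the gene end, and a gene was counted for a list when at least 1 bp of a peak lay in that window. In WT cells more cyclin and Cdk genes carried H3.3 peaks at day 15 than at day 0. In WT day 0, 20 of 37 members had a peak (54.1%, 95% Clopper-Pearson interval 36.9 to 70.5), beside 35.4% of all protein-coding genes. In WT day 15 there were 27 members (73.0%, 55.9 to 86.2), beside 39.4% of all genes. At both days the WT share of all genes lay under the interval of the members. The intervals cover counting error over genes only. Lists of unequal length are not alike in what they can hold, so each was also held to its 7332 highest-scoring peaks, the length of the shortest. The members with a peak were then 12 in WT day 0, 5 in Hira-null day 0, 19 in WT day 15 and 17 for Hira-null day 15, beside 16.5%, 10.1%, 18.2% and 15.2% of all genes.

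For Hira-null day 0, 7 members had a peak (18.9%, 7.96 to 35.2), beside 20.3% of all genes, so the members stood at the background of that list. In Hira-null day 15, 17 members had a peak (45.9%, 29.5 to 63.1), beside 15.2% of all genes. The number of peaks in the member windows was 64 in WT day 0, 13 in Hira-null day 0, 123 in WT day 15 and 32 for Hira-null day 15. Per 10 kb of window this was 0.27, 0.0548, 0.518 and 0.135 peaks for the members, and 0.133, 0.0559, 0.212 and 0.0429 for all genes in the same order. The median score of member peaks was 102 for WT and 83.2 for Hira-null at day 15. When scores under 100 were left out, the members with a Hira-null day 15 peak numbered 7 instead of 17 (18.9%, beside 8.21%).

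**Figure D1:**
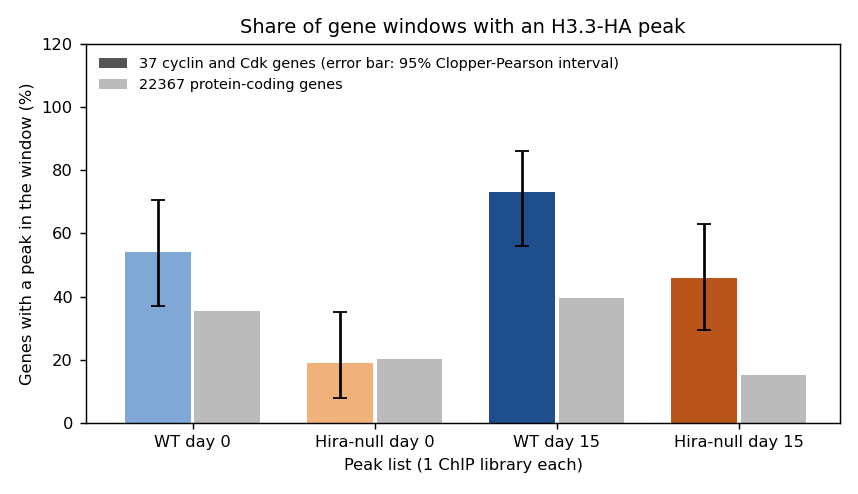
Percent of gene windows touched by an H3.3-HA peak (vertical axis) in each of the 4 peak lists (horizontal axis, 1 ChIP library each). Coloured bars are the 37 cyclin and Cdk genes with 95% Clopper-Pearson intervals and grey bars are all 22367 protein-coding genes; the coloured bar is the higher in 3 lists, and in Hira-null day 0 it stands at 18.9% beside 20.3%.

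Member windows were not long for the genome, with a median of 26.4 kb beside 28.4 kb for all genes. The comparison was repeated within short, middle and long windows. Among genes with windows of 42.4 kb or more, 12 of 13 members had a WT day 15 peak (92.3%), beside 54.7% of all genes of that length. Among windows under 20.4 kb it was 5 of 9 members (55.6%) beside 22.1%, and 10 of 15 (66.7%) beside 41.4% for windows in between. In Hira-null day 15 the shares were 53.8% beside 22.4% for long windows, 53.3% beside 15.3% for middle ones and 22.2% beside 7.86% for short ones.

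The genotypes differed at day 0 mainly by members that had WT peaks alone. At day 0, 14 members had a WT peak and no Hira-null peak (37.8%, beside 21.9% of all genes), 1 member, Ccnt2, had a Hira-null peak and no WT peak (beside 6.8%), and 6 had peaks of both genotypes (16.2%, beside 13.5%). At day 15, 10 members had a WT peak and no Hira-null peak (beside 28.3%), which is near the background share at 27%. No member had a Hira-null peak alone at day 15, beside 4.1% of all genes, and a count of 0 of 37 allows a share of up to 9.49% (upper bound of the 95% interval). Peaks of both genotypes at day 15 were found in 17 members (45.9%, beside 11.1%). With all lists held to 7332 peaks, 6 members had WT peaks alone at day 15 (16.2%, beside 11.4% of all genes), 4 had Hira-null peaks alone (10.8%, beside 8.36%) and 13 had both (beside 6.84%), so the absence of members with Hira-null peaks alone held for the lists as deposited and not at equal length. With windows that ended 200 bp past the gene, 16 members had WT peaks alone at day 15 (43.2%, beside 27.7%) and 11 had any Hira-null peak (29.7%, beside 13.3%).

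Most WT member peaks had no Hira-null peak over them, at a share near that of the whole list at day 15 and above it at day 0. At day 15, 111 of 123 WT peaks in member windows had no Hira-null peak of that day overlapping by at least 1 bp (90.2%, 83.6 to 94.9), beside 91.9% of the whole list. At day 0 it was 60 of 64 (93.8%, 84.8 to 98.3), beside 72.7%. The whole lists also hold peaks outside gene windows, where member peaks cannot lie. Over all gene windows, the WT day 0 share was 83.7% in introns and 82.7% past the end. It was 92.6% in the 3 kb upstream of the TSS and 80.3% further upstream, so the members stood closer to these shares than to that of the list. In the other direction, 18 of 32 Hira-null day 15 peaks (56.2%, 37.7 to 73.6) and 8 of 13 Hira-null day 0 peaks (61.5%, 31.6 to 86.1) had no WT peak over them, beside 69.2% and 67.2% of their lists.

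In the lists as deposited, 19 of the 20 members with a WT peak at day 0 also had one at day 15, in the longer list. There were 19 members with WT peaks at both days (51.4%, beside 23.8%), 8 with a WT peak at day 15 alone (21.6%, beside 15.6%) and 1, Cdk9, with a WT peak at day 0 alone (2.7%, beside 11.5%). With lists of equal length, 9 of 12 members with a WT day 0 peak also had a day 15 peak, and 3 had none (8.11%, beside 8.41%). In Hira-null cells, 6 members had peaks at both days (16.2%, beside 6.89%), 11 at day 15 alone (29.7%, beside 8.31%) and 1 at day 0 alone (beside 13.4%). There were 9 members with no peak in any list (24.3%, beside 42.7%).

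**Figure D2:**
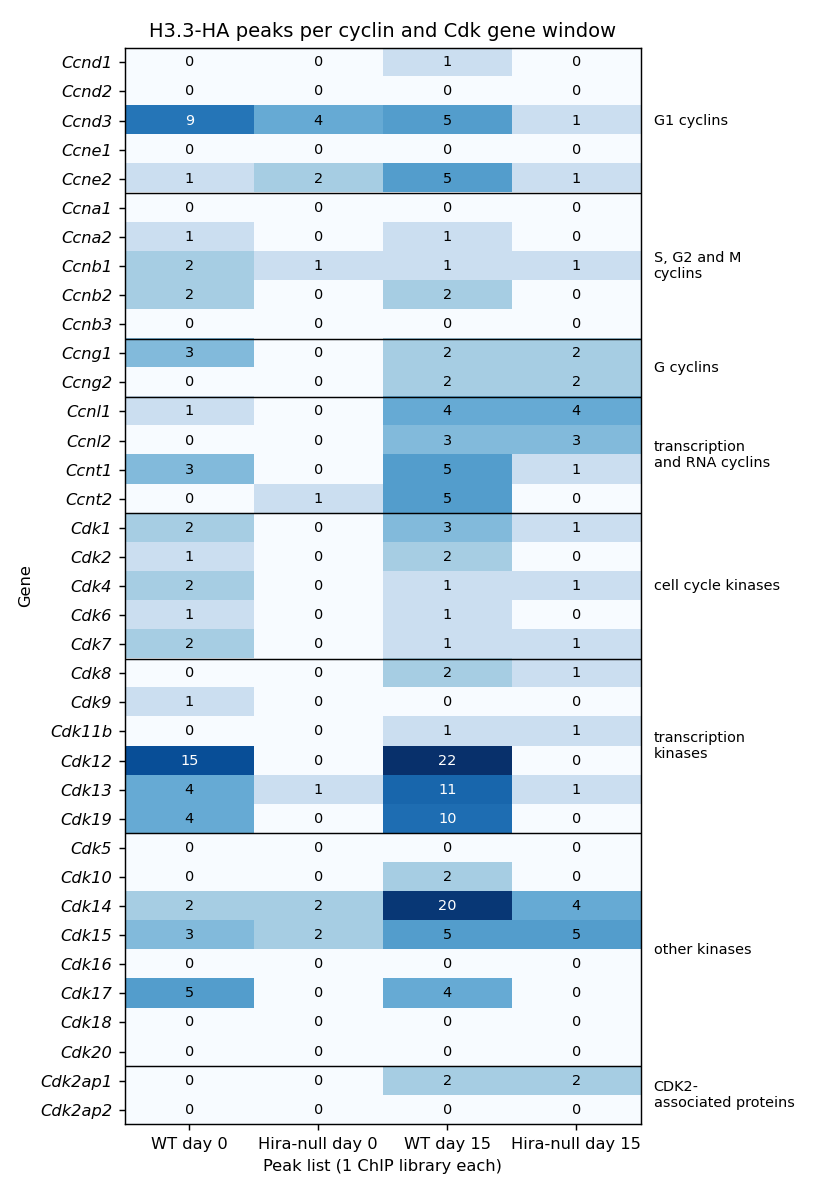
Number of H3.3-HA peaks in each member's window (rows, grouped by role) in the 4 peak lists (columns, 1 ChIP library each), with darker blue for more peaks. Cdk12 has 15 and 22 peaks in the WT lists and 0 in both Hira-null lists, and Cdk14 has 20 in WT day 15.

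Among the G1 cyclins, Ccnd3 and Ccne2 carried most of the peaks. Ccnd3 (chr17:47642000-47736632), which encodes a D cyclin that activates CDK4 and CDK6, had 9 peaks in WT day 0, 4 in Hira-null day 0, 5 in WT day 15 and 1 for Hira-null day 15. It was the member with the most Hira-null day 0 peaks. Its window is long, at 107.6 kb, and by density it ranked 1605 of 22367 genes in that list and 4616 in WT day 15. A region just upstream of its TSS was covered in 3 lists, with scores of 173 in WT day 0, 212 in Hira-null day 0 and 90.1 in WT day 15, and no Hira-null day 15 peak. Upstream, 3 of the 4 Hira-null day 0 peaks also touched the gene Taf8 and cannot be assigned to Ccnd3 alone. The peaks past the gene end, in WT at both days and in Hira-null day 15, touched the gene Bysl.

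Ccne2 (chr4:11118498-11131926), an E cyclin that activates CDK2 at the entry to S phase, had 1, 2, 5 and 1 peaks in WT day 0, Hira-null day 0, WT day 15 and Hira-null day 15. The WT and Hira-null peaks lay in different places. The WT peaks lay over and near the gene, with midpoints from -2.11 kb relative to the TSS to 0.422 kb past the gene end, and had scores from 57.0 to 196. The WT day 0 peak and 3 of the 5 WT day 15 peaks, the highest among them, also touched the gene Ints8. The Hira-null peaks lay upstream. The region from 11109036 to 11113105 scored 415 at day 0 and 390 at day 15 in Hira-null cells and held no WT peak at either day, and a second Hira-null day 0 peak of score 373 further upstream overlapped a WT day 0 peak of score 92.5 that lay outside the window. Ccnd1 had a single WT day 15 peak of score 52.0, close to the lowest score that the lists hold, at -2.34 kb relative to its TSS. Ccnd2 and Ccne1 had no peak in any list.

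Of the 5 S, G2 and M cyclins, 3 had a WT day 15 peak (60%, beside 39.4% of all genes). These 3, Ccna2, Ccnb1 and Ccnb2, held 0.493, 0.478 and 0.744 such peaks per 10 kb, beside 0.212 over all genes. A Hira-null peak was held by 1 of the 5 at each day (20%). This is near the share of all genes, 20.3% at day 0 and 15.2% at day 15. Ccnb1 (chr13:101548605-101556525), the cyclin that brings CDK1 into mitosis, was the only one of these cyclins with Hira-null peaks. It had 2, 1, 1 and 1 peaks in WT day 0, Hira-null day 0, WT day 15 and Hira-null day 15. A joined region from inside its end to past it (chr13:101545756-101549518) held peaks of all 4 lists, with scores of 86.3, 86.9, 551 and 147 in that order, although the WT and Hira-null peaks of day 0 did not overlap each other. The Hira-null day 0 and WT day 15 peaks of this region also touched the gene Cenph. Ccnb2 had 2 WT peaks at each day, the highest with a score of 461 at day 15, at -3.41 kb relative to its TSS. That peak also touched the gene Rnf111, as did the other WT day 15 peak and the WT day 0 peak of score 83.3. Ccna2 had 1 WT peak past its end at each day, with scores of 74.9 and 188, in a stretch shared with Exosc9. Ccna1, which is mainly a germ cell cyclin, and Ccnb3 had none. Ccnb3 and Cdk16 lie on chromosome X, where the WT lists held 0.00398 and 0.00121 peaks per 10 kb of gene window at day 0 and day 15, so a lack of peaks there is not particular to these genes.

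The G cyclins showed H3.3 at their ends in both genotypes at day 15. Ccng1 (chr11:40562054-40568813), a cyclin induced by p53, had 3 WT day 0 peaks, no Hira-null day 0 peak, and 2 peaks in each day 15 list. The WT day 15 peak over its end was 10387 bp wide, from 40555939 to 40566325, and scored 1787, and the WT day 0 peak at the same place scored 516. Each was the highest member score of its list. The Hira-null day 15 peaks within that stretch scored 153 and 58.6. Ccng2 had no peak at day 0 in either genotype, a WT day 15 peak of score 358 over its end, and Hira-null day 15 peaks of scores 132 and 115 that both overlapped it.

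The cyclins that act with RNA polymerase II and splicing kinases all had WT day 15 peaks, 4 of 4 members, beside 39.4% of all genes. Their windows are of middle or long length, where 41.4% and 54.7% of all genes had such a peak, and 4 genes are few. Ccnl1 (chr3:65750073-65762171), which encodes cyclin L1, a partner of CDK11, had 1, 0, 4 and 4 peaks in WT day 0, Hira-null day 0, WT day 15 and Hira-null day 15. The region over its end scored 226 in WT day 0, 837 in WT day 15 and 755 for Hira-null day 15. These day 15 scores lay closer together than those of Ccng1, and the Hira-null peak was 4408 bp wide beside 4870 bp in WT. Ccnl2 had no day 0 peak and 3 peaks in each day 15 list. Its 2 highest WT peaks, of scores 200 and 154, lay upstream of the gene, and all 3 Hira-null peaks, of scores 97.2, 77.8 and 54.8, lay around the gene end. The third WT peak, of score 71.9, also lay past the gene end and overlapped the Hira-null peak of 77.8. The peak of score 200 also touched Mrpl20.

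Ccnt1 and Ccnt2 encode partners of CDK9 in the elongation factor P-TEFb. Ccnt1 had 3 WT day 0 peaks, 5 WT day 15 peaks and 1 Hira-null day 15 peak, which overlapped a WT peak past the gene end with scores of 84.2 and 79.2. Its WT day 0 peaks of scores 53.4 and 55.0 also touched 4930415O20Rik. Ccnt2 had 5 WT day 15 peaks inside the gene with scores from 60.5 to 151, no WT day 0 peak and 1 Hira-null day 0 peak of score 100. None of these 5 peaks had a Hira-null peak over it. The kinase gene itself, Cdk9, had 1 WT day 0 peak of score 50.4 past its end, at the edge of what the caller reported, and no other. That peak also touched Fpgs.

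The kinases that run the cell cycle had WT peaks at both days in all 5 members, beside 23.8% of all genes. None of the 5 had a Hira-null day 0 peak, beside 20.3% of all genes with one, and 5 genes are too few to set apart from that share. Cdk1, the mitotic kinase, had 2 WT day 0 peaks, 3 WT day 15 peaks and 1 Hira-null day 15 peak. The Hira-null peak lay 2.83 kb past the gene end and scored 82.1, over a WT day 15 peak of score 53.7. Cdk4 had 2, 0, 1 and 1 peaks, and the WT peaks of both days covered its end, in a stretch shared with Tspan31, with scores of 71.3 and 136, while the Hira-null day 15 peak of 63.7 lay in an intron. Cdk7, whose product activates other CDKs and is part of TFIIH, had WT day 0 intron peaks of scores 235 and 53.0 and a WT day 15 peak of 56.1 upstream. It also had a Hira-null day 15 peak of 52.1 past its end, which touched Ccdc125 as well. Cdk2 had 1 and 2 WT peaks, with a highest score of 110. Its WT day 0 peak, of score 55.4, lay at -5.97 kb relative to its TSS and touched Pmel. Cdk6 had a WT intron peak near its TSS at each day, with scores of 134 and 54.6. The only WT peaks of Cdk2 at day 0 and of Cdk6 and Cdk7 at day 15 thus scored close to the lowest score of 50. No Hira-null peak touched Cdk2 or Cdk6.

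The transcription kinases held the gene with the most member peaks, Cdk12 (chr11:98064373-98139818), whose product phosphorylates the tail of RNA polymerase II. Cdk12 had 15 peaks in WT day 0, with scores from 61.3 to 268 (median 83.3), and 22 in WT day 15, from 54.5 to 468 (median 122). No Hira-null peak touched its window at either day. The WT peak farthest upstream at each day, of scores 64.8 and 78.4, also touched Med1. The peaks formed 25 regions, of which 9 were covered on both days, 5 at day 0 alone and 11 at day 15 alone. Cdk12 lies on chromosome 11, where WT day 15 peaks were dense over all genes, at 0.79 per 10 kb beside 0.212 genome-wide, and in WT day 0 the density there was 0.351. By density Cdk12 reached 2.49 peaks per 10 kb in WT day 15 and ranked 132 of 1653 genes on that chromosome and 231 of 22367 in all. Cdk12, Ccng1 and Cdk10 are the 3 members on chromosomes 8 and 11, the other chromosome with dense WT day 15 peaks being chromosome 8 at 0.538. The part of the chromosome-wide density in the Cdk12 counts was not tested. Without chromosomes 8 and 11, none of the counts of members moved by more than 1.5 times.

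Cdk13 (chr13:17807796-17896931), the closest relative of Cdk12, had 4, 1, 11 and 1 peaks in WT day 0, Hira-null day 0, WT day 15 and Hira-null day 15. Its window was 102.1 kb, and its WT day 15 density of 1.08 peaks per 10 kb ranked 1781 of 22367. The single Hira-null peaks both lay just past the gene end, in the region with the Cdk13 sequence above, which scored 182 in WT day 0, 243 in Hira-null day 0, 182 in WT day 15 and 55.3 for Hira-null day 15. This was the only place in the Cdk13 window with Hira-null peaks. The other 10 WT day 15 peaks lay in introns with scores from 50.2 to 353, and 9 regions of the gene were covered in WT day 15 alone. Cdk19, a kinase of the Mediator complex, had 4 WT day 0 and 10 WT day 15 peaks and none in Hira-null cells. Of its 13 regions, 1 was covered at both days. Its window was 147.5 kb, and its WT day 15 density of 0.678 peaks per 10 kb ranked 3054 of 22367. Its paralog Cdk8 had 2 WT day 15 peaks, of scores 202 and 90.1, and 1 Hira-null day 15 peak of 84.4 elsewhere in the gene. Cdk11b had 1 peak in each day 15 list, of scores 79.5 for WT and 51.3 for Hira-null, which did not overlap. Both also touched Gm10563, and the WT peak touched Slc35e2.

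Among the other kinases, Cdk14 (chr5:4803391-5420312), which acts in Wnt signalling, had 2 WT day 0, 2 Hira-null day 0, 20 WT day 15 and 4 Hira-null day 15 peaks. The gene is long, with a window of 629.9 kb, so its WT day 15 density of 0.317 peaks per 10 kb ranked 6040 of 22367. The peaks were not spread evenly, since 18 of 20 lay between 36.0 and 160 kb downstream of the TSS, with a highest score of 589. All 4 Hira-null day 15 peaks lay in the first 200 kb as well. Of these, 1 overlapped a WT peak at its edge (99.5 in WT, 123 in Hira-null), and the highest, of 361, had no WT peak over it. The region from 5236331 to 5239118 was covered in both Hira-null lists, by 1 peak of score 309 at day 0 and by peaks of 123 and 50.2 at day 15, and in neither WT list.

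**Figure D3:**
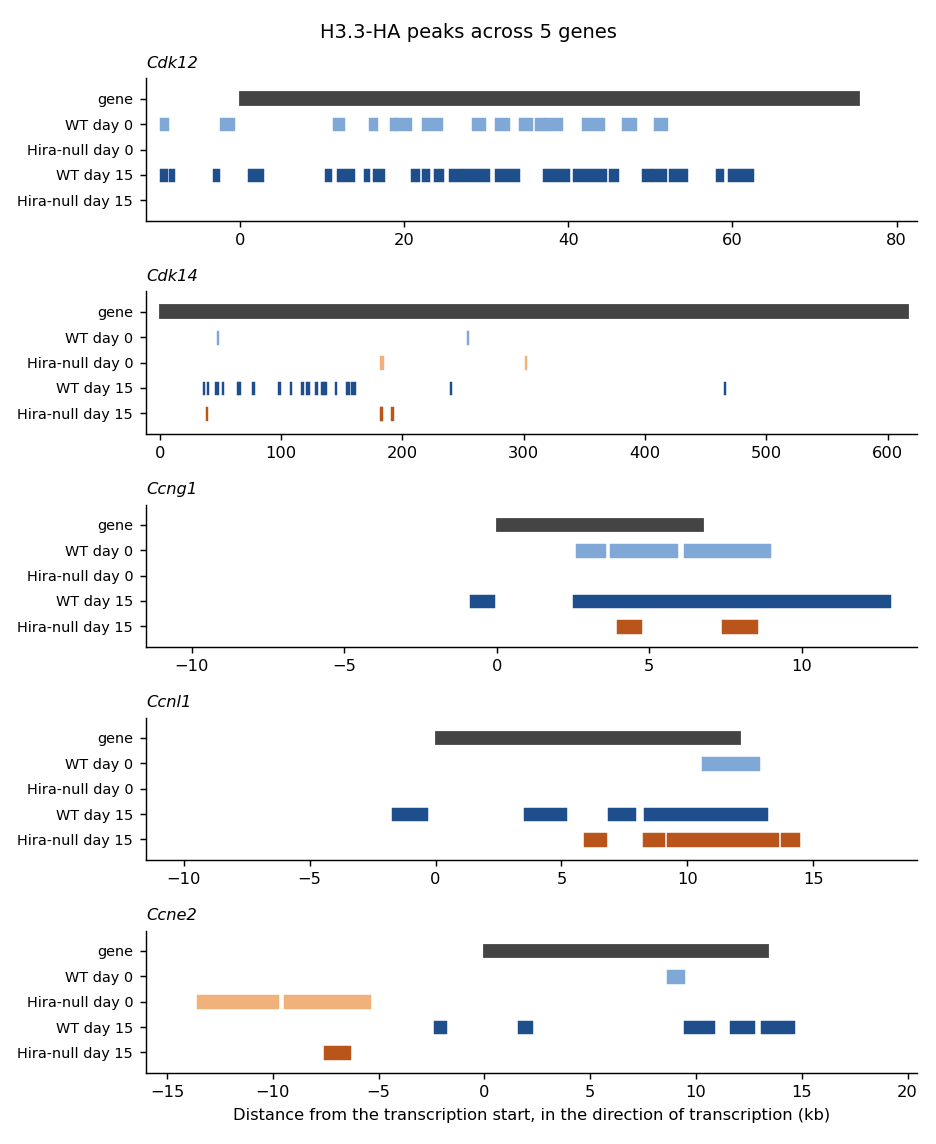
Peaks of the 4 lists (coloured blocks, to scale) along 5 genes (dark bars), by distance from the TSS in kb in the direction of transcription. Cdk12 shows blocks in the WT rows only, Ccng1 and Ccnl1 carry WT and Hira-null day 15 blocks over their ends, and the Hira-null blocks of Ccne2 lie upstream of the gene.

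Cdk15 (chr1:59313750-59409837) had the most Hira-null day 15 peaks of any member, 5 beside 5 in WT day 15, 3 in WT day 0 and 2 for Hira-null day 0. Its Hira-null day 15 peaks were weak, with scores from 54.4 to 75.1, and its WT day 15 peaks scored from 108 to 202. In WT cells its TSS was covered at both days, with scores of 161 and 119, and no Hira-null peak touched it. The peaks that both genotypes shared at day 0 lay in an intron near the gene end, with scores of 68.4 and 101 in WT and 262 and 374 in Hira-null. These peaks lay in repeated sequence. Of 20 evenly spaced words of 25 bases from each peak, the median word occurred 1120.5 and 238 times in the genome for the WT peaks and 751 and 28 times for the Hira-null peaks, and 237.5 times for the Hira-null day 15 peak at the same place of score 71.4. Reads from such sequence can align to many places, so these peaks cannot be assigned to Cdk15 with confidence.

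No other member peak had a median word count of 10 or more. Of the Cdk14 peaks, the Hira-null day 15 peaks of scores 361 and 50.2 had median word counts of 4.5 and 7.5, and all others had 1. By list this was 2 of 64 member peaks in WT day 0 (3.12%, beside 11.2% of the list), 2 of 13 in Hira-null day 0 (15.4%, beside 39.4%), 0 of 123 in WT day 15 (beside 1.11%) and 1 of 32 in Hira-null day 15 (3.12%, beside 12.7%). The Ccne2 upstream peaks of Hira-null cells had a median word count of 1, although single words in the peak of score 415 occurred up to 900 times.

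Cdk17, a kinase of the PCTAIRE group, had 5 WT day 0 and 4 WT day 15 peaks, all in introns and none in Hira-null cells. Its window was 119.2 kb, and its WT day 15 density of 0.336 peaks per 10 kb ranked 5856 of 22367. The places were nearly fixed between days, since 4 of its 5 regions were covered at both days, with day 15 scores from 82.6 to 210. Cdk10 had 2 WT day 15 peaks of scores 54.4 and 67.6, which both touched the gene Gm20388. Cdk5, the neuronal kinase, Cdk16, Cdk18 and Cdk20 had no peak in any list. Of the CDK2-binding proteins, Cdk2ap1 had 2 peaks in each day 15 list and none at day 0, and Cdk2ap2 had none. The Cdk2ap1 gene end scored 351 in Hira-null day 15 over WT peaks of 85.0 and 168, so here the Hira-null score was the higher.

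Peaks of both genotypes in a window did not always overlap. At day 15, 11 of the 17 members with peaks of both genotypes had at least 1 overlapping pair, and Ccnd3, Ccne2, Cdk11b, Cdk4, Cdk7 and Cdk8 had none. The 11 were 64.7% of these members, beside 61.7% of the 2483 genes with peaks of both genotypes, which is near the background. At day 0, 3 of 6 had such a pair, beside 67.7% of 3018 genes, and Ccnb1, Ccne2 and Cdk14 did not within their windows. The 15 overlapping pairs at day 15 included 10 in which the WT score was the higher, and in the 4 pairs at day 0 the Hira-null score was always the higher. The day 15 pairs are not all separate. The WT peaks of Ccng1, Ccnl1 and Ccng2 and the Hira-null peak of Cdk2ap1 each entered more than 1 pair. The day 0 pairs include the Cdk15 peaks in repeated sequence, which cannot be assigned to that gene with confidence. The median score over all peaks was 122 in the Hira-null day 0 list and 80.3 in the WT day 0 list, and 91.7 and 86.7 in the Hira-null and WT day 15 lists, so score levels also differed between whole lists.

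**Figure D4:**
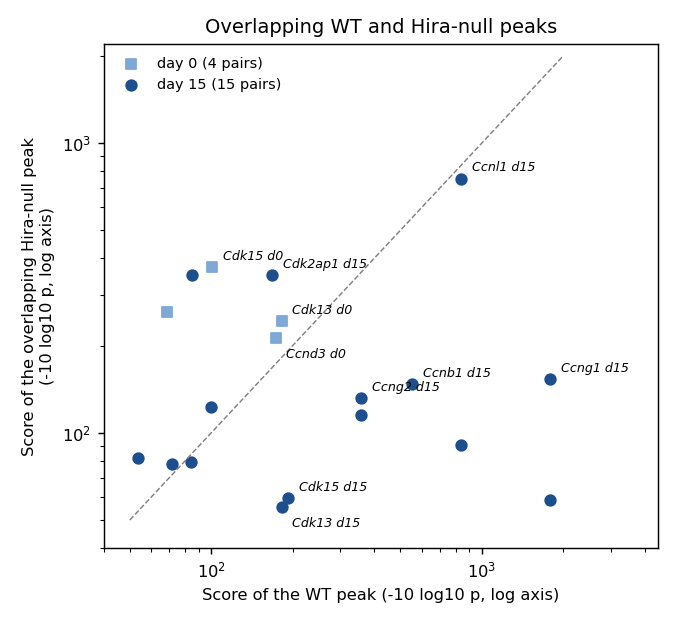
Score of each WT member peak (horizontal, log axis) against the score of the Hira-null peak that overlaps it on the same day (vertical, log axis), with day 0 pairs as squares and day 15 pairs as circles; the dashed line marks equal scores. All 4 day 0 pairs lie above the line, and 10 of 15 day 15 pairs lie below it, with Ccng1 farthest to the right at 1787. The WT peaks of Ccng1, Ccnl1 and Ccng2 and the Hira-null peak of Cdk2ap1 are repeated across pairs, and the Cdk15 day 0 peaks lie in repeated sequence.

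The place of the peaks within the genes differed between genotypes at day 15. By midpoint, 12 of 32 lay within 3 kb past a gene end (37.5%, beside 18.4% of Hira-null day 15 peaks in all gene windows), and 0 of 32 lay in the 3 kb upstream of a TSS (beside 6.23%). Within gene bodies alone, 10 members had a Hira-null day 15 peak instead of 17, beside 9.37% of all genes. In WT day 15 it was 16 of 123 past the end (13.0%, beside 9.83%), 13 upstream (10.6%, beside 11.2%) and 78 in introns (63.4%, beside 58.0%).

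Counted by gene, 9 members had a WT day 15 peak within 1 kb of the TSS (24.3%, beside 12.6% of all genes), and these were Ccnd3, Ccng1, Ccng2, Ccnl1, Cdk10, Cdk11b, Cdk12, Cdk15 and Cdk19. At equal list length 2 members were left. All genes were not counted at that setting, so it does not show whether the members stayed above the background. In WT day 0 there were 5 (13.5%, beside 8.56%), and in Hira-null day 15 none, beside 0.921% of all genes, so a count of 0 is near the background. Within 1 kb of the gene end there were 8 members in WT day 0 (21.6%, beside 6.73%) and 14 in WT day 15 (37.8%, beside 10.9%). In Hira-null day 15 there were 8 (21.6%, beside 3.72%), namely Ccng1, Ccng2, Ccnl1, Ccnl2, Cdk13, Cdk15, Cdk2ap1 and Cdk7.

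**Figure D5:**
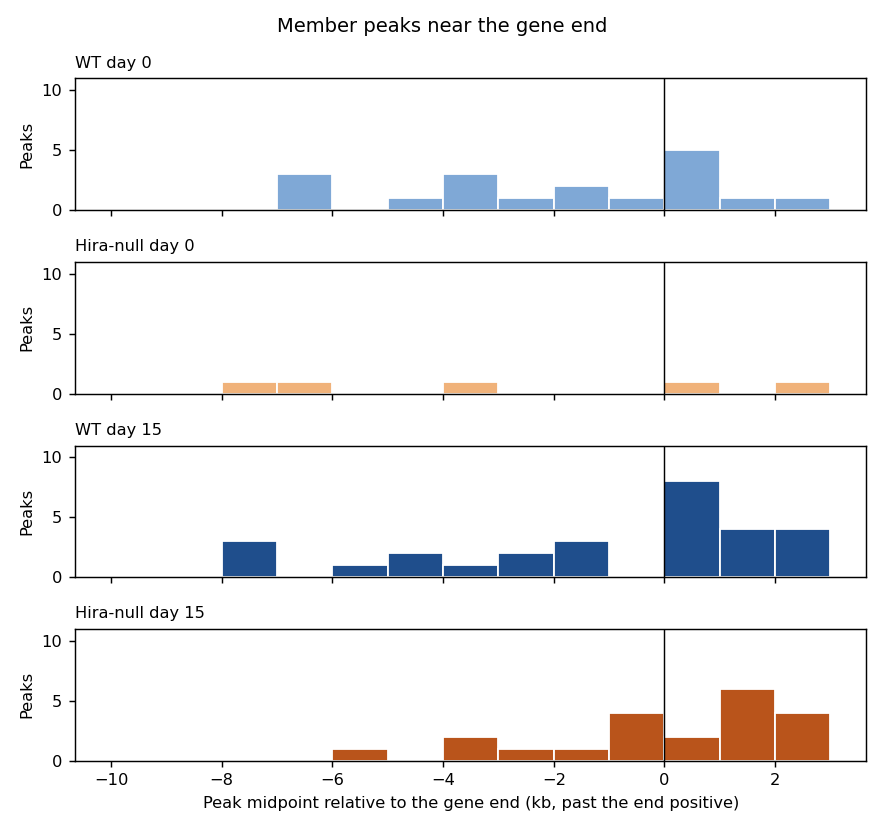
Number of member peaks (vertical) by the distance of their midpoint from the gene end in bins of 1 kb (horizontal, past the end positive), for each list. In WT day 15 16 peaks and in Hira-null day 15 12 peaks have their midpoint in the 3 kb past the end, beside 7 in WT day 0 and 2 for Hira-null day 0.

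Sharing between genotypes was also counted by place. Of the WT day 15 peaks past a member's end, 7 of 16 had no Hira-null peak over them (43.8%), beside 79.7% of such peaks over all genes. In introns it was 75 of 78 (96.2%, beside 94.8%), and upstream within 3 kb of the TSS 13 of 13 (beside 95.2%). At day 0, 6 of 7 WT peaks past a member's end had no Hira-null peak over them (85.7%, beside 82.7%), which is near the background. When peaks of all lists that overlap were joined, member windows held 172 regions. WT day 15 alone covered 82 of them (47.7%, beside 43.9% of the 37185 regions in all gene windows), WT at both days without Hira-null 25 (14.5%, beside 10%), and Hira-null day 0 alone 5 (2.91%, beside 9.83%).

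The starts of the members were rich in CpG, with a median of 22 CpG sites in the 300 bases from 250 before to 50 after the TSS, beside 11 over 22362 protein-coding promoters, and a median G and C content of 62.7% beside 55.0%. The letters CCAAT, on either strand, were found in 15 of 37 member promoters (40.5%, beside 37.9% of all), TTTGAA in 5 (13.5%, beside 16.3%), TTTCGCGC in 1, that of Cdk1 (2.70%, beside 0.362%), and TTTGGCGC in 0 (beside 0.680%). The Cdk1 promoter also held CCAAT and TTTGAA, and no list had a peak within 1 kb of its TSS.

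The promoters of Ccnd3, Cdk12, Ccng2 and Cdk15 are shown because the peaks within 1 kb of their TSS had the highest scores among the members, and only the bases before the TSS are given. The Ccnd3 stretch, chr17:47641750-47641999, lies just outside the upstream peak, has 11 CpG sites and holds none of these motifs. The Cdk12 stretch, chr11:98064123-98064372, lies ahead of a WT day 15 intron peak of score 192 whose near edge is 0.902 kb past the TSS, has 22 CpG sites and holds none of them. The Ccng2 stretch, chr5:93696033-93696282, lies downstream of a WT day 15 peak of score 165 and holds CCAAT 3 times and TTTGAA once on the other strand, both in capitals. The Cdk15 stretch, chr1:59313500-59313749, lies wholly inside the WT day 0 peak of score 161, has 5 CpG sites and holds none of these motifs.
Ccnd3 promoter: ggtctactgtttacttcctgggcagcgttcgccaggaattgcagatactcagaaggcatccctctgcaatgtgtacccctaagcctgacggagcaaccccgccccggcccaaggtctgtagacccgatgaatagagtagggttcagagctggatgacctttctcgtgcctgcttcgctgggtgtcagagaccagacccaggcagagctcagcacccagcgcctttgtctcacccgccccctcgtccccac
Cdk12 promoter: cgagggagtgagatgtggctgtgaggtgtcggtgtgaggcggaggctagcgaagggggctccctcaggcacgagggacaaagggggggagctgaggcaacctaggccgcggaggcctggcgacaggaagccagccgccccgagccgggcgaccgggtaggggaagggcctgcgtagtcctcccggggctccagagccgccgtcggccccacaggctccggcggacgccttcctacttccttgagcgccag
Ccng2 promoter: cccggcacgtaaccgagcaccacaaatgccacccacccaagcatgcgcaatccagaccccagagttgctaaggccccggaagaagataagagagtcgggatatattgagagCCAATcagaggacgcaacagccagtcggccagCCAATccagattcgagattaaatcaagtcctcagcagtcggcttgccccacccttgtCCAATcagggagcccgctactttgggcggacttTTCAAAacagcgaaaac
Cdk15 promoter: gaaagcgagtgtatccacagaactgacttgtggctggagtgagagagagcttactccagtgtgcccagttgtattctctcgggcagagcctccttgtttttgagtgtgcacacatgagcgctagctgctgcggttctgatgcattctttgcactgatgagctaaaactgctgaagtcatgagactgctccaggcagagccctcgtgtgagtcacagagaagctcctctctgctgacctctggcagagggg

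The other genes of the cell cycle machinery gave a comparison, with 44 genes in 4 lists. In WT day 0, Hira-null day 0, WT day 15 and Hira-null day 15, 25, 7, 31 and 11 of these 44 genes had a peak, or 56.8%, 15.9%, 70.5% and 25%. The shares of all genes were 35.4%, 20.3%, 39.4% and 15.2% in the same order. The WT shares stood within the intervals of the members at both days. The Hira-null day 15 share lay under the members' interval of 29.5 to 63.1, but 11 of 44 has a counting error of its own. The members' own share was 29.7% with windows to 200 bp past the gene end and 18.9% at a score of at least 100. The comparison genes were not counted at these settings, and the difference was not tested. Among 13 CDK regulators, such as Wee1, Cdc25a, Cdc20 and Fbxw7, 11 carried WT peaks at day 15 (84.6%, beside 39.4% of all genes). At that day 2, Cks2 and Fzr1, carried Hira-null peaks (15.4%, beside 15.2%), which is near the background. Of 13 Rb and E2F genes, 9 carried WT peaks at day 15 (69.2%, beside 39.4%) and 3 carried Hira-null peaks (23.1%, beside 15.2%). Rb1, the retinoblastoma gene, had 5, 2, 11 and 3 peaks in the 4 lists.

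Of 8 genes of CDK inhibitors, which block the kinases, 3 carried WT peaks at day 15 (37.5%, beside 39.4% of all genes). Hira-null peaks were carried by 4 at that day (50%, beside 15.2%). The WT share was near the background, and 8 genes are few. Cdkn1a, which encodes p21, had 1, 3, 2 and 4 peaks in WT day 0, Hira-null day 0, WT day 15 and Hira-null day 15, so it had more Hira-null than WT peaks at both days. Cdkn1b, which encodes p27, had 2, 0, 5 and 1. Of 10 cyclins outside the naming rule, 8 carried WT peaks at day 15 (80%, beside 39.4%) and 2, Ccnf and Ccni, carried Hira-null peaks (20%, beside 15.2%). No test was possible with 1 library per condition, so these counts describe 4 libraries.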

How the data were processed

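H3.3-HA ChIP-seq and input libraries of 4 conditions were considered (8 samples, grouped by their labels). Per the paper's methods, the authors aligned paired-end reads to mm9 with Bowtie, removed duplicates with Samtools and called peaks with MACS 1.4.2. The deposited lists give a score per peak, minus 10 times the log10 of its p-value, and no counts. The lowest score was 50 in each list. Input libraries have no file used here, and depth is unknown.

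Starts in the deposited lists were read as counted from 0 and are printed counted from 1. Genes were the 22367 protein-coding genes of GENCODE M1 on NCBIM37 (mm9), and no peak ended past its chromosome. Peaks were counted per window (10 kb upstream of the TSS to 3 kb past the gene end) when at least 1 bp was touched, so a peak can count for neighbouring genes. Where a share of genes or peaks carries an interval, it is a Clopper-Pearson interval of 95%. There was no test, because each condition had 1 ChIP library. The place of a peak (intron, UTR, coding exon and others) was taken at its midpoint. Repeated sequence was measured by exact matches of 20 words of 25 bases per peak on both strands of chromosomes 1 to 19, X and Y. The counter was tested on simulated data and recovered planted peaks in 200 of 200 windows.

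Genes were named when they were among the 5 members with the most peaks in a list, had peaks of both genotypes at a day, differed by at least 3 peaks between genotypes, or held the highest score of a list, and all other members were accounted for. The members, lists and rules were chosen with earlier results of these data known. The word counts and the joined regions were added after the data were seen. Alternatives were a score of at least 100, lists held to 7332 peaks, a window to 200 bp past the gene end, the gene body, chromosome sets, other member sets, midpoint assignment, overlap of 50%, Hira-null peaks widened by 1 kb, and distances of 250 bp and 2 kb. Overlaps and all other values were computed in Python 3.11.15 with scipy 1.17.1, pandas 2.3.3 and numpy 2.4.6. The counts and overlap calls were checked against bedtools 2.31.1 on simulated peaks, and figures were drawn with matplotlib 3.10.9.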

Additional observations from a re-analysis of the deposited data

Results flagged for a closer look

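In 2 members the genotypes differed in opposite directions at the 2 days. At day 0 the window of Ccne2 held 1 peak from WT and 2 from Hira-null, and at day 15 it held 5 and 1, so WT minus Hira-null went from -1 to 4, a shift of 5 peaks. The direction at day 0 rests on the window edge, since 1 of these Hira-null peaks has its midpoint outside the window and overlaps a WT peak that lies just outside it. By midpoint the day 0 counts were 1 and 1. For Ccnt2 the counts were 0 from WT and 1 from Hira-null at day 0, and 5 and 0 at day 15, so WT minus Hira-null went from -1 to 5, a shift of 6 peaks. The difference between days was not tested, because each condition had 1 library.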

How the results depend on the processing

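Of 128 values under 13 alternatives for 14 results, 104 stayed within 1.5 times the count or inside the interval, and 24 moved. With a score of at least 100, 13 members had peaks in WT day 0 (35.1%, beside 17.2% of all genes). In Hira-null day 15 it was 7 (18.9%, beside 8.21%). Members with a Hira-null peak alone at day 0 were 3, and those with a WT peak at day 0 alone were 2. Those with a WT day 15 peak within 1 kb of the TSS were 4. With lists held to 7332 peaks, 12 members had a WT day 0 peak (32.4%, beside 16.5% of all genes). At day 15, WT alone was 6 (16.2%, beside 11.4%) and Hira-null alone was 4 (10.8%, beside 8.36%). At day 0, WT alone was 9 and Hira-null alone was 2. WT at day 0 and not at day 15 was 3 (8.11%, beside 8.41%), and 2 members had a WT day 15 peak near the TSS. At that length peaks of day 15 were held by 19 members for WT (51.4%, beside 18.2%) and 17 for Hira-null (45.9%, beside 15.2%). With windows to 200 bp past the gene end, 11 members had a Hira-null day 15 peak (29.7%, beside 13.3%). WT alone at day 15 was 16 (43.2%, beside 27.7%) and Hira-null alone was 1 (2.7%, beside 3.84%). WT day 0 alone was 0 (beside 11.4%). With gene bodies, 4 members had a Hira-null day 0 and 10 a Hira-null day 15 peak, Hira-null alone at day 15 was 3, and WT day 15 alone against day 0 was 5. A required cover of at least 50% gave 95.1% unshared WT peaks at day 15. With Ccnb1ip1 added, WT day 0 alone was 2. Within 250 bp and 2 kb of the TSS, WT day 15 members were 3 and 15. Where a member count here has no share of all genes beside it, all genes were not counted at that setting. No paired analysis was possible because each condition had 1 library. Depth, the input control and the 1 Hira-null clone limit every count.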
